A study of Rattus norvegicus with 2 samples.

Results

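The serpins are a superfamily of serine protease inhibitors, and every gene whose symbol starts with Serpin was taken from the gene list of 2 single-cell RNA libraries of rat hypothalamus. The list held 40 such genes among 32883. Of these, 12 had 50 or more unique molecular identifiers (UMIs, each counting 1 captured transcript) over both libraries, 13 had 1 to 49, and 15 had 0. The libraries came from female Sprague Dawley rats killed on postnatal day (PND) 29. The Control library was made from rats with an oil-filled silicone capsule by the study's methods, although its label calls the animals intact. The SC300 library was made from rats given a silicone capsule with 300 µg estradiol benzoate (EB) in oil on PND 0.5. Hypothalamic tissue holding the anteroventral periventricular and arcuate areas of 3 rats was pooled into each library, so there was 1 library per group, the spread between animals is unknown, and no test of the treatment was possible. The comparison asks which serpin transcripts differed after neonatal EB, and in which cells. By the paper, serum estradiol of SC300 rats was still above that of Control rats close to PND 29. Estradiol in the hypothalamus had reached the Control level earlier. Effects of the neonatal exposure and of the estradiol still in circulation cannot be told apart.

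Most serpins trap their target protease in a covalent complex after it cuts an exposed loop, and both proteins are then removed from the cell surface by receptors of the LDL receptor family. In the brain, extracellular members of clades E and I hold plasminogen activators and thrombin in check, which bears on synaptic remodelling and on the stability of vessels. Clade B members stay inside the cell and guard it against leaked lysosomal and granule proteases. Some members no longer inhibit proteases: *Serpinh1* encodes the collagen chaperone HSP47, and *Serpinf1* encodes pigment epithelium-derived factor, a secreted neurotrophic and antiangiogenic protein.

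*Serpinf1* and *Serpine2* differed in opposite directions in tanycytes, the elongated ependymoglial cells that line the floor of the third ventricle, so their promoters are shown. Each sequence is a RefSeq promoter of the GRCr8 assembly, 300 bases on the minus strand that run from before to just after the annotated gene start, and capitals mark matches to the motifs searched. *Serpinf1* (ENSRNOG00000003172) lay at chr10:60760849-60761148 and *Serpine2* (ENSRNOG00000015461) at chr9:88637153-88637452.
Serpinf1: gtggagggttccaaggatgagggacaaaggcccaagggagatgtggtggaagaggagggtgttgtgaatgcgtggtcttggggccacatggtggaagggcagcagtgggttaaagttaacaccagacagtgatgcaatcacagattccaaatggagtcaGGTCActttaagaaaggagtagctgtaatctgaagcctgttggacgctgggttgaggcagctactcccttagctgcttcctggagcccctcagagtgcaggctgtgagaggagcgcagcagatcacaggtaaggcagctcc
Serpine2: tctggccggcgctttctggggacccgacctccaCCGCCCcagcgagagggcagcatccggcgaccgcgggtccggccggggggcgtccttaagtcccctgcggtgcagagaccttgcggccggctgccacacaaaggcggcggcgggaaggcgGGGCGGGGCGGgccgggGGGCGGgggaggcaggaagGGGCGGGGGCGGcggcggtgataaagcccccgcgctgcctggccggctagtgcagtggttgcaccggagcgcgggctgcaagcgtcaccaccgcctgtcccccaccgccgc
Both strands were searched for 6 motifs. The estrogen response element, GGTCA and TGACC with 3 bases between them, was in neither window and in 0.0269% of all 33469 promoters of that length. Its core GGTCA, which is contained in the full element, matched once in the *Serpinf1* window and in 40.5% of all promoters. The GC box GGGCGG matched 6 times in the *Serpine2* window, with 1 pair overlapping, 1 pair adjoining and the others apart, and was in 33.1% of all promoters. The AP-1 site TGANTCA (7.33% of promoters), the E-box CACGTG (6.42%) and the TATA box TATAAA (14.2%) matched in neither. These matches describe letters and say nothing of binding.

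After barcodes with under 200 detected genes were left out, 4296 Control and 4379 SC300 barcodes remained, with 51382276 and 56390355 UMIs. Each barcode was assigned to a cell type by a gate on marker genes that held no Serpin symbol. The astrocyte list did hold *Agt*, a serpin superfamily member under another symbol, which is not among the members here. In all, 13 types had at least 10 cells in each library. They ran from 1082 Control and 1195 SC300 astrocytes down to 16 and 40 stromal cells and 16 and 44 macrophages. The stromal cells were named fibroblasts for *Dcn*, *Col1a1* and *Lum*. Tanycytes, gated on *Crym*, numbered 235 and 148, and ependymal cells 110 and 79. A further 283 Control and 314 SC300 barcodes were called mixed. Their best list led the next by under 0.5, or they failed a further rule for tanycytes or stromal cells. Another 223 and 187 barcodes scored too low on every list. Neither the mixed nor the low-scoring barcodes entered a cell type. Mural cells, which are pericytes and smooth muscle cells, also carried endothelial markers: the 6 of 8 listed endothelial genes with UMIs summed to 7293 and 7020 CPM, the UMIs of a gene per 1000000 UMIs, in them, against 11644 and 11402 CPM in endothelial cells. Their *Cldn5*, an endothelial tight junction gene, was at 4541 and 4478 CPM. Stromal cells carried mural markers at 4329 and 3961 CPM, against 5731 and 5743 CPM in mural cells. Endothelial markers in stromal cells summed to 4396 and 2279 CPM. The part of vascular RNA in the stromal levels was not tested. All levels below are CPM of the summed UMIs of a cell type in a library, with exact 95% Poisson intervals that cover counting error only. Only 7 barcode sequences occurred in both libraries.

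The 40 genes with a Serpin symbol together took 36133 UMIs in Control and 40036 in SC300, which is 703 and 710 CPM. *Serpine2* and *Serpinh1* held 72.2% of these UMIs, and the 8 most abundant members held 97.2%. Among the 13 Serpina symbols only *Serpina11* and *Serpina1* reached 50 UMIs, against 4 of 16 Serpinb symbols and 6 of 11 in the other clades. Superfamily members under other symbols, such as *Agt*, are in none of these counts. The members with 1 to 49 UMIs had at most 43, in *Serpinb11*. Antithrombin (*Serpinc1*), the main plasma inhibitor of thrombin, had 3 Control and 7 SC300 UMIs, and heparin cofactor II (*Serpind1*) had 1 and 7. The 15 members at 0, which include *Serpinf2*, the plasmin inhibitor of plasma, and *Serpina6*, the corticosteroid-binding globulin, were not detectable at a depth where 3 UMIs correspond to 0.0584 CPM in Control and 0.0532 CPM in SC300.

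**Figure D1:**
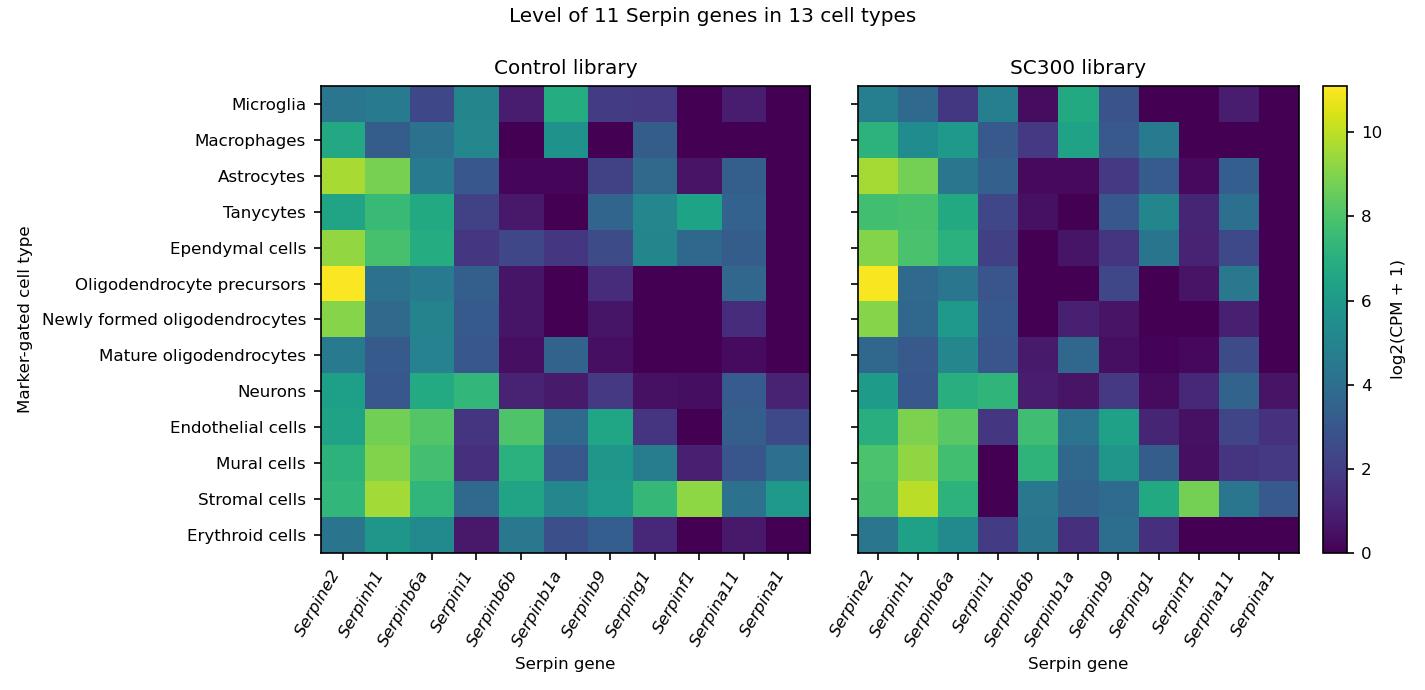
Level of 11 of the 12 serpin genes with 50 or more UMIs (columns, most abundant first) in the 13 gated cell types (rows), as log2(CPM + 1) on the colour scale, in the Control library (left) and the SC300 library (right). *Serpine2* in oligodendrocyte precursors is the brightest field of both panels, and *Serpinf1* in tanycytes is bright in Control (84.8 CPM) and dark in SC300 (1.23 CPM).

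*Serpine2* encodes protease nexin-1, a glial inhibitor of thrombin and of plasminogen activators. It was at its highest in oligodendrocyte precursors, 2079 CPM (2013 to 2146) in Control and 2057 CPM (1994 to 2122) in SC300, and 98.9% and 99.3% of these cells held a UMI of it. Astrocytes followed at 792 and 786 CPM, then ependymal cells at 627 and 530 CPM and newly formed oligodendrocytes at 543 and 548 CPM. The level was lower at each step of the oligodendrocyte lineage. It was 3.83-fold (3.57 to 4.11) higher in precursors than in newly formed cells in Control and 3.76-fold (3.52 to 4.01) higher in SC300. Newly formed cells were in turn 24.0-fold above mature oligodendrocytes in Control and 43.3-fold in SC300. Over both libraries together mature oligodendrocytes were the lowest of the 13 types, at 22.6 CPM (19.5 to 26.2) and 12.6 CPM (10.6 to 15). Erythroid cells, at 18.1 and 19.7 CPM, and microglia, at 19.5 and 26.6 CPM, stood near them. The Control intervals of these 3 types overlapped.

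Between the libraries, *Serpine2* was 1.5-fold or more higher in SC300 in 3 of the 12 types where it had 50 UMIs. In tanycytes it had 257 Control and 524 SC300 UMIs, 88.2 CPM (77.8 to 99.7) against 215 CPM (197 to 234), a log2 ratio of 1.28 (1.07 to 1.5). A UMI was found in 89 of 235 Control tanycytes, 37.9% (exact binomial 31.7 to 44.4), and in 97 of 148 SC300 tanycytes, 65.5% (57.3 to 73.2). With each cell thinned to 2000 UMIs the shares were 12.4% and 29.9%, 1 shallower cell being left out in each library. In microglia, one of the lowest types, 5.94% and 5.49% of cells held a UMI at median depths of 6819 and 7388 UMIs, against 10723 and 11396.5 in tanycytes. Precursor markers summed to 31.6 and 63.9 CPM in tanycytes, against 5300 and 4898 CPM in the precursors themselves, and astrocyte markers to 942 and 716 CPM. Ependymal markers summed to 2136 and 2137 CPM in tanycytes, against 5572 and 6089 CPM in ependymal cells. The part of these in the tanycyte result was not tested. In mural cells *Serpine2* was at 144 CPM (128 to 161) in Control and 246 CPM (228 to 265) in SC300, a log2 ratio of 0.78 (0.58 to 0.98), and its thinned share was 24.6% and 44.9%. Precursor markers, a list that holds *Cspg4* and *Pdgfra*, summed to 309 and 371 CPM in mural cells. This sum was not split by gene, so it may not measure precursor RNA, and its part in the mural result was not tested. In endothelial cells the levels were 83.0 and 125 CPM, a log2 ratio of 0.59 (0.32 to 0.86) that was within 1.5-fold under 4 of 9 alternative settings. Markers of mural cells summed to 392 and 523 CPM in endothelial cells, those of precursors to 131 and 148 CPM, of microglia to 32.0 and 109 CPM and of erythroid cells to 8187 and 19618 CPM, and their part in the result was not tested. Of all genes with 50 UMIs, 5.1% were higher by 1.5-fold in tanycytes, 3.29% in mural cells and 3.24% in endothelial cells.

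In mature oligodendrocytes *Serpine2* was lower in SC300, from 179 UMIs in Control to 134, log2 ratio −0.84 (−1.18 to −0.51), in a type where 3.24% of genes were lower by 1.5-fold. As much as 44.1% of the UMIs in Control, and 32.1% in SC300, came from 3 cells. With called doublets left out the log2 ratio was 0.20, and the direction of this pair therefore depended on barcodes that may hold more than 1 cell. In precursors, astrocytes and newly formed oligodendrocytes the log2 ratios were −0.02, −0.01 and 0.01.

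**Figure D2:**
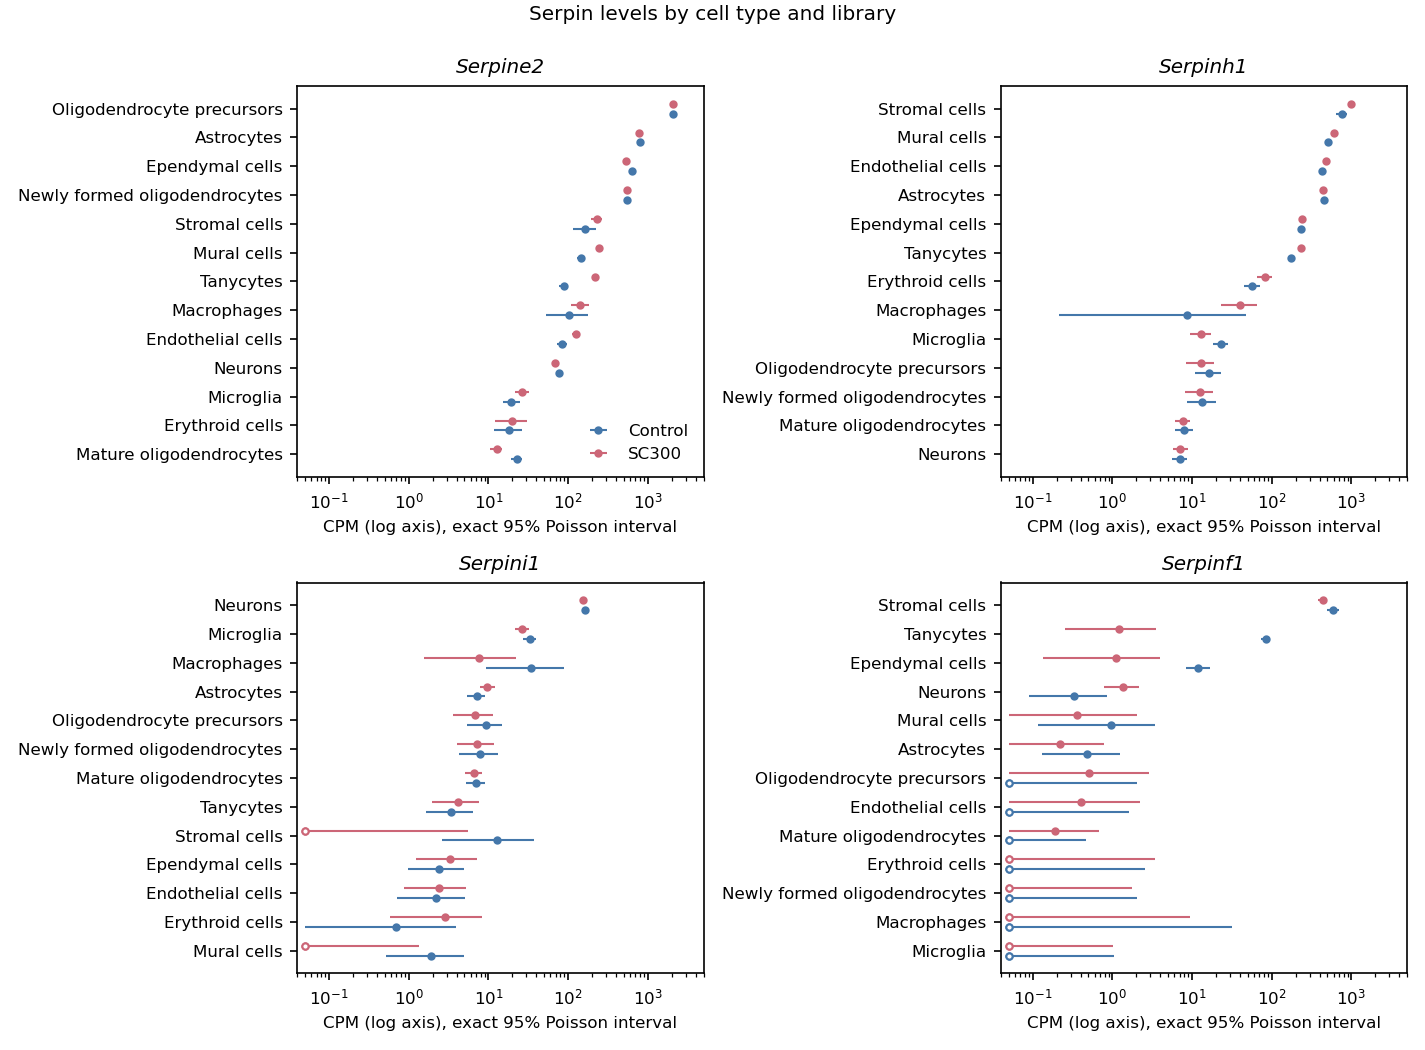
CPM (horizontal log axis) of *Serpine2*, *Serpinh1*, *Serpini1* and *Serpinf1* in each gated cell type, ordered by the level over both libraries, with exact 95% Poisson intervals as lines, Control in blue and SC300 in red. Open points at the left edge stand for 0 UMIs, and intervals reaching that edge are cut there; *Serpinf1* in tanycytes lies at 84.8 CPM in Control and 1.23 CPM in SC300.

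*Serpini1* encodes neuroserpin, the neuronal inhibitor of tissue-type plasminogen activator. Neurons held 83.9% of its UMIs, at 163 CPM (155 to 170) in Control and 153 CPM (146 to 160) in SC300. A UMI was found in 73.4% and 72.6% of neurons, against 5.18% and 6.61% of astrocytes, whose median depth was 6222 and 6450 UMIs against 23550.5 and 21876 in neurons. Thinned to 2000 UMIs, the shares were 18.7% and 22.5% of neurons and 1.11% and 1.93% of astrocytes. Glutamatergic neurons, gated on *Slc17a6*, were at 203 and 174 CPM and GABAergic neurons, gated on *Slc32a1*, at 126 and 134 CPM. The glutamatergic level was thus higher 1.61-fold (1.46 to 1.77) in Control and 1.30-fold (1.18 to 1.43) in SC300. Microglia came next among the types with 32.9 and 26.6 CPM. In none of the 4 types where *Serpini1* had 50 UMIs did the libraries differ by 1.5-fold, and the log2 ratio in neurons was −0.09 (−0.18 to 0.00).

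The proteases and receptors of the same axis were read beside these inhibitors. Of 17 genes listed for plasminogen and thrombin, 6 had 50 UMIs in tanycytes, where 5.1% of all genes were higher and 7.36% lower by 1.5-fold. Only *Lrp2*, an endocytic receptor, passed 1.5-fold there, with 18 and 80 UMIs (log2 ratio 2.41, 1.66 to 3.23). In ependymal cells *Lrp2* went the other way, with 106 and 31 UMIs (−1.09, −1.71 to −0.50). The median log2 ratio of the 6 genes in tanycytes was −0.10, against −0.04 over all genes. *Plat*, which encodes tissue-type plasminogen activator, the target of neuroserpin, was at 194 and 170 CPM in tanycytes, and was highest in ependymal cells at 1150 and 907 CPM. In neurons *Plat* was at 9.19 and 5.27 CPM, a log2 ratio of −0.80 (−1.26 to −0.35). *Klk6*, also on the list, went the other way in neurons, with 22 and 86 UMIs (log2 ratio 1.92, 1.23 to 2.66). Both levels were low. Markers of mature oligodendrocytes summed to 49.99 and 182 CPM in neurons, against 23833 and 24569 CPM in mature oligodendrocytes. *Klk6* was at 1.82 and 6.87 CPM in neurons and at 739 and 857 CPM in mature oligodendrocytes. The part of RNA from other cells in the *Plat* and *Klk6* levels of neurons was not tested. *Lrp1*, the receptor that clears serpin complexes, was at 109 and 95.5 CPM in tanycytes and at 755 and 737 CPM in astrocytes.

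*Serping1* encodes C1 inhibitor, which blocks the first proteases of the classical complement pathway. It was 1.5-fold or more lower in SC300 in 4 of the 5 types where it had 50 UMIs, and no other member was lower in more than 1. In mural cells it had 51 and 24 UMIs, 24.5 CPM (18.2 to 32.2) against 8.71 CPM (5.58 to 13), a log2 ratio of −1.49 (−2.26 to −0.76). Stromal markers in mural cells summed to 1504 and 1511 CPM, against 12130 and 12768 CPM in stromal cells. The part of stromal RNA in the mural result was not tested. In ependymal cells *Serping1* had 97 and 34 UMIs, 33.5 against 18.9 CPM, for a log2 ratio of −0.83 (−1.43 to −0.25). Endothelial markers in ependymal cells summed to 113 and 12.8 CPM, mural markers to 115 and 45.6 CPM and erythroid markers to 2385 and 56.2 CPM, and their part in the result was not tested. The shares of cells with a UMI were 25.0% and 8.70% of mural cells and 44.5% and 27.8% of ependymal cells, against 1.05% and 0.42% of neurons, which were deeper in UMIs. In stromal cells it was at 169 and 105 CPM, from 40 and 70 UMIs, with a log2 ratio of −0.68 (−1.26 to −0.09), and −0.42, within 1.5-fold, without the 3 cells with most UMIs of it. The stromal cells of the Control library also carried more endothelial RNA, with endothelial markers at 4396 and 2279 CPM. Mural markers summed to 4329 and 3961 CPM in stromal cells. The part of these in the stromal result was not tested. In astrocytes the log2 ratio was −0.67 (−1.11 to −0.24), within 1.5-fold under 4 of 9 alternatives. Tanycytes were the exception, at 34.0 and 32.8 CPM and a log2 ratio of −0.05 (−0.50 to 0.39). Of all genes, 3.64% were lower by 1.5-fold in mural cells, 5.94% in ependymal cells, 7.92% in stromal cells and 1.96% in astrocytes.

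Within astrocytes *Serping1* was uneven. All cells were clustered on genes other than the serpins, and astrocytes were the most frequent gated type in 4 of the clusters. Of these, a cluster of 289 and 342 cells was led by *Oxt* and *Avp*, with a median mitochondrial share of 41.5%, so its name is uncertain. The small cluster of 58 Control and 59 SC300 cells, led by *Cryba4*, *Lcat* and *Gfap*, held *Serping1* at 147 and 105 CPM. The largest of the 4, of 773 and 980 cells and led by *Slc7a10* and *Etnppl*, held it at 0.39 and 1.34 CPM. The small cluster was deeper, at a median of 15481 UMIs against 6147. *Serpine2* differed far less between the same clusters, at 1044 and 947 CPM against 737 and 767 CPM. *C1s*, which encodes a protease that C1 inhibitor blocks, was at 21.8 and 37.0 CPM in astrocytes (log2 ratio 0.76, 0.50 to 1.03) and at 69.8 and 45.6 CPM in ependymal cells (−0.61, −1.002 to −0.236). In stromal cells *C1s* counted 13 and 75 UMIs, log2 ratio 1.04 (0.18 to 2.01). *C1r*, also on the list of complement proteases, stayed within 1.5-fold in astrocytes, ependymal cells and stromal cells, at log2 ratios of 0.46, −0.08 and 0.41.

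*Serpinf1* in tanycytes had the largest log2 ratio in size among the 65 pairs compared. In tanycytes it had 247 UMIs in Control and 3 in SC300, 84.8 CPM (74.5 to 96.05) against 1.23 CPM (0.25 to 3.59). The log2 ratio was −6.11 (−8.40 to −4.54), and 7.36% of genes were lower by 1.5-fold in tanycytes. A UMI was found in 63 of 235 Control tanycytes, 26.8% (21.3 to 33.0), and in 2 of 148 SC300 tanycytes, 1.35% (0.16 to 4.80). The 3 richest Control cells held 27.1% of the UMIs, so no single cell set the level. Without the 3 richest cells of each library the log2 ratio was −5.64, and over the 9 alternatives it lay between −7.68 and −4.37. Microglia had no *Serpinf1* UMI in 505 and 492 cells, which allows a level of up to 0.859 and 0.830 CPM. Stromal cells, the strongest source of the gene, expressed it at 589 CPM (495 to 695) and 435 CPM (387 to 488). The log2 ratio there was −0.44 (−0.73 to −0.13). In the cluster named for stromal cells, of 11 and 34 cells, *Serpinf1* was at 934 and 785 CPM. Stromal markers summed to only 5.84 and 4.51 CPM in tanycytes, against 12130 and 12768 CPM in stromal cells. In gated ependymal cells, which had fewer than 50 UMIs of it, *Serpinf1* showed 35 and 2 UMIs, 12.1 and 1.11 CPM. This pair was picked out after its values were seen. In the clusters on other genes, the one named for ependymal cells held only 3 and 1 UMIs. The one named for tanycytes held 281 and 5. Most ependymal UMIs of Control thus lay outside the ependymal cluster, and the part of tanycyte-like barcodes in this pair was not tested. Neurons, also picked out afterwards, had 4 and 17 UMIs, and 1 SC300 neuron held 6 of them.

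In Control tanycytes the cells with *Serpinf1* held less *Serpine2*. Of 63 cells with a *Serpinf1* UMI, 12 also held *Serpine2*, which is 19.0%, whereas 44.8% of the other 172 held it. The *Serpinf1* cells were the deeper ones, with a median of 12790 UMIs against 10367.5. Summed over cells, *Serpine2* was at 31.1 CPM in the former and 115 CPM in the latter. Among SC300 tanycytes without *Serpinf1*, *Serpine2* was at 218 CPM. Only 2 SC300 tanycytes held *Serpinf1*, so the cells without it were not a like group in both libraries. Whether the *Serpine2* difference was separate from that of *Serpinf1* was not tested. The tanycyte marker list, which includes the *Crym* of the gate, summed to 3334 and 4335 CPM. *Pomc* was at 644 and 129 CPM in tanycytes and *Tagln*, a gene of smooth muscle that is also on the mural list, at 581 and 1597 CPM. The 9 genes of the mural list, of which 7 and 6 had a UMI, summed to 600 and 1627 CPM in tanycytes, nearly all of it *Tagln*; *Myh11* had 23 and 46 UMIs, *Pdgfrb* 22 and 23, and *Acta2* and *Notch3* none. The part of these differences in the serpin results was not tested.

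**Figure D3:**
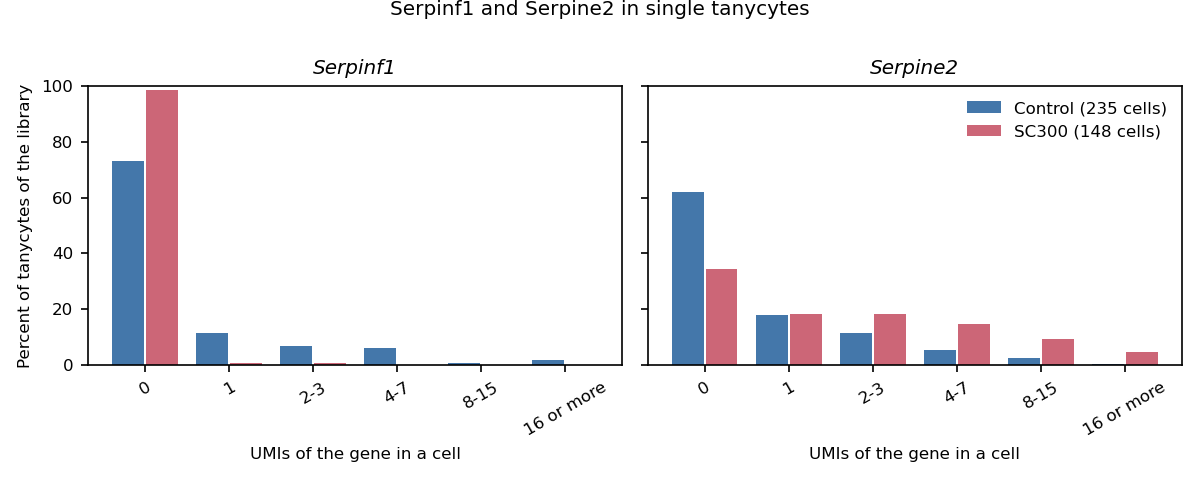
Percent of the tanycytes of each library (vertical axis) by the number of UMIs of *Serpinf1* (left) and *Serpine2* (right) in a cell (horizontal axis), for 235 Control cells in blue and 148 SC300 cells in red. *Serpinf1* is at 0 UMIs in 73.2% of Control and 98.6% of SC300 cells, and *Serpine2* at 0 UMIs in 62.1% and 34.5%.

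*Serpinh1* was broadest in the supporting cells of the tissue. Stromal cells led at 758 CPM (651 to 878) in Control and 980 CPM (907 to 1059) in SC300, followed by mural cells at 515 and 609 CPM, endothelial cells at 424 and 481 CPM and astrocytes at 450 and 440 CPM. Neurons and mature oligodendrocytes were the lowest, at 7.12 and 7.19 CPM and at 7.97 and 7.64 CPM. The intervals of endothelial cells and astrocytes overlapped in Control. In the cluster named for stromal cells *Serpinh1* was at 984 and 1101 CPM. In tanycytes the level was 175 CPM (160 to 191) and 233 CPM (214 to 253), a log2 ratio of 0.41 (0.24 to 0.59) that stayed under 1.5-fold. Only microglia passed 1.5-fold, at 22.9 and 13 CPM and a log2 ratio of −0.82 (−1.37 to −0.28), where 4.22% of genes were lower. With graph clusters the log2 ratio was −0.29, within 1.5-fold. *Col4a1*, a collagen gene that HSP47 serves, was highest in stromal, mural and endothelial cells as well, at 915 and 839, 848 and 982, and 683 and 733 CPM. Of the 7 listed collagen genes, 4 had 50 UMIs in mural cells, where *Col3a1* was lower (267 and 151 CPM, log2 ratio −0.82, −1.01 to −0.64) and *Col6a1*, with 30 and 60 UMIs, had a log2 ratio of 0.60 whose interval (−0.06 to 1.28) held 0. Of all genes in mural cells, 3.64% were lower and 3.29% higher by 1.5-fold.

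Of the intracellular clade B members with 50 UMIs, 3 were highest in endothelial cells and 1 in microglia. *Serpinb6a*, *Serpinb6b* and *Serpinb9*, the last an inhibitor of granzyme B, led in endothelial cells, which held 15.8% of the UMIs of *Serpinb6a*. *Serpinb6a* was at 279 and 303 CPM, *Serpinb6b* at 261 and 203 CPM and *Serpinb9* at 90.0 and 80.5 CPM there. *Serpinb6a* and *Serpinb6b* are related copies whose reads may be shared or lost in counting, so their separate levels are uncertain. Still, their patterns differed: *Serpinb6a* was at 108 and 122 CPM in neurons, where *Serpinb6b* had 14 and 10 UMIs. *Serpinb6b* was almost absent from astrocytes, with a UMI in 1 of 1082 and 2 of 1195 cells. In mural cells these genes stood at a part of the endothelial level. The mural over endothelial ratio was 0.525 and 0.725 for *Serpinb6b*, 0.641 and 0.713 for *Serpinb9*, and 0.793 and 0.698 for *Serpinb6a*, beside 0.626 and 0.616 for the endothelial marker list. For *Serpine2* it was 1.73 and 1.97, and for *Serpinh1* 1.21 and 1.27. *Serpinb1a*, an inhibitor of neutrophil elastase, was led by microglia at 116 CPM (105 to 128) and 108 CPM (97.2 to 119), with a UMI in 48.5% and 50.2% of them against 1.48% and 1.27% of neurons. Macrophages had 51.4 and 83.7 CPM of it, from 6 and 33 UMIs.

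Among clade B genes 2 pairs passed 1.5-fold. *Serpinb6a*, *Serpinb6b*, *Serpinb1a* and *Serpinb9* were compared in 11, 3, 3 and 5 types. *Serpinb6a* in newly formed oligodendrocytes had 54 and 126 UMIs, 30.1 CPM (22.6 to 39.3) against 60.6 CPM (50.5 to 72.2), a log2 ratio of 1.01 (0.54 to 1.5), where 2.62% of genes were higher. Its thinned shares were close to each other, at 6.33% and 5.70% of at most 170 and 161 cells. Their order rests on few cells, and the higher level in SC300 was not seen in them. Markers of mature oligodendrocytes summed to 3834 and 5264 CPM in these cells, while *Serpinb6a* in mature oligodendrocytes themselves was at 29.5 and 34.5 CPM. In tanycytes, where 7.36% of genes were lower by 1.5-fold, *Serpinb9* had 33 and 17 UMIs. Its log2 ratio was −0.70, and the interval (−1.64 to 0.18) held 0. In neurons, endothelial cells and mural cells its log2 ratios were 0.04, −0.16 and −0.01.

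*Serpina11* was low and widespread, at 6.36 CPM in Control and 7.48 CPM in SC300 over all barcodes. In mature oligodendrocytes it had 2 UMIs in Control and 52 in SC300, 0.25 CPM (0.03 to 0.91) against 4.91 CPM (3.66 to 6.43), a log2 ratio of 4.28 (2.35 to 7.36). It was 3.46 without the 3 cells with most UMIs of the gene and 2.49 with each cell weighted alike. The SC300 UMIs came from 41 of 467 cells with at most 3 in a cell, and the Control UMIs from 2 of 371 cells. These shares were 8.78% and 0.54%, whereas microglia held the gene in 0.61% of SC300 and 0.59% of Control cells at lower depth. The thinned shares, 0.86% and 0.28%, rested on 4 and 1 cells. In oligodendrocyte precursors the level was 11.5 and 20.6 CPM (log2 ratio 0.85, 0.05 to 1.68), and in newly formed cells of the same lineage it had 3 and 2 UMIs. In tanycytes it was at 10.3 and 15.6 CPM, a log2 ratio of 0.60 whose interval (−0.13 to 1.34) held 0; it was within 1.5-fold under 4 of 9 alternatives and lowest, at 0.15, with each cell weighted alike. Astrocytes, at 9.16 and 8.95 CPM, did not share this direction. Of all genes, 2.44% were higher by 1.5-fold in mature oligodendrocytes, 2.18% in precursors and 5.1% in tanycytes.

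*Serpina1*, which encodes alpha-1-antitrypsin, the main elastase inhibitor of plasma, had 83 UMIs in Control and 25 in SC300, and 50 in no single type. The UMIs came from 23 and 13 cells. In mural cells it had 33 and 7 UMIs, of which 3 Control cells held 72.7%, and in stromal cells 15 and 5. The cluster named for stromal cells held 0 and 0 UMIs of *Serpina1*, and the one named for mural cells 53 and 17. The UMIs of gated stromal cells thus lay outside the stromal cluster, and the part of mural RNA in them was not tested. Over all barcodes the level of *Serpina1* was 1.62 CPM (1.29 to 2.00) against 0.44 CPM (0.29 to 0.65). Both values rest on few cells, and the cells that held it may differ in number or in RNA per cell.

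Over all members, 65 gene and cell type pairs had 50 UMIs and were compared, for 11 genes. SC300 was lower by 1.5-fold or more in 8 pairs and higher in 8, which is 12.3% in each direction, and 49 pairs lay within 1.5-fold. Over all 86232 pairs of a gene and a type with 50 UMIs, 4.23% were lower and 3.55% were higher. The 16 pairs came from 8 members, and 4 of them lay in tanycytes, 2 in each direction, where 7 members were compared. The median log2 ratio of the 65 pairs was −0.01. Pairs of one gene share its transcripts and free RNA, and pairs of one type share its cells, so they are not independent. No pair of *Serpini1*, *Serpinb6b* or *Serpinb1a* passed 1.5-fold.

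**Figure D4:**
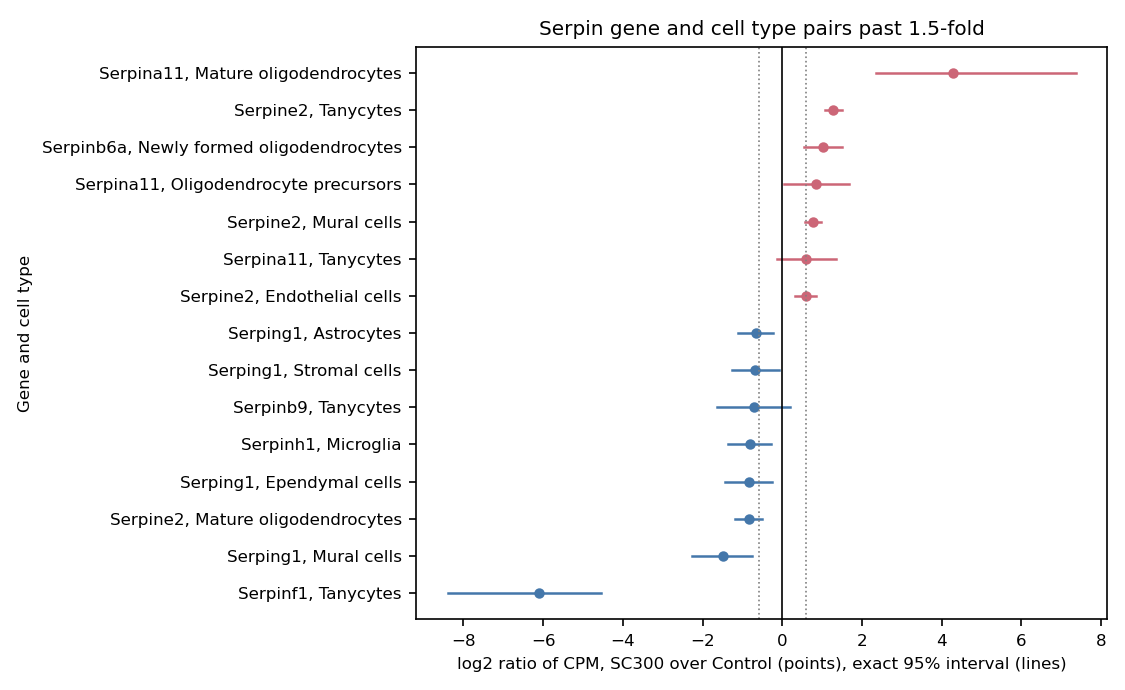
Log2 ratio of CPM, SC300 over Control (points), with its exact 95% interval (lines), for 15 of the 16 gene and cell type pairs past 1.5-fold, whose limits are the dotted lines. *Serpinf1* in tanycytes lies farthest to the left at −6.11 and *Serpina11* in mature oligodendrocytes farthest to the right at 4.28, and the intervals of *Serpinb9* and *Serpina11* in tanycytes cross 0.

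Protease inhibitors outside the family were also read in tanycytes. Of 14 such genes in the files, 9 had 50 UMIs there, in a type where 5.1% of all genes were higher and 7.36% lower by 1.5-fold. *Cst3*, which encodes the cysteine protease inhibitor cystatin C, was higher in SC300, at 2423 and 7483 CPM (log2 ratio 1.63, 1.59 to 1.67), and *Timp4* was lower. In microglia, where *Cst3* was at its highest, the levels were 87296 and 81567 CPM. Gated ependymal cells shared the tanycyte direction, at 559 and 1091 CPM of *Cst3* (log2 ratio 0.96, 0.87 to 1.06). Among 11 lysosomal and granule proteases, 5 had 50 UMIs in tanycytes and only *Ctsh*, cathepsin H, passed 1.5-fold, at 483 and 305 CPM (log2 ratio −0.66, −0.79 to −0.53). *Ctsh* was lower in gated ependymal cells too, at 249 and 120 CPM (−1.06, −1.29 to −0.84). Tanycyte markers summed to 111 and 80.1 CPM in the gated ependymal cells, and the part of tanycyte-like barcodes in both results was not tested. Of 13 genes linked to reactive glia, 4 had 50 UMIs in tanycytes and 2 were lower by 1.5-fold, *Cp* and *Gfap*, where 7.36% of all genes were. *Cp* had 40 and 19 UMIs, a log2 ratio of −0.82 whose interval (−1.69 to 0.003) held 0. *Gfap*, the intermediate filament of astrocytes, was at 159 and 38.5 CPM there, against 1596 and 1447 CPM in astrocytes. A lower *Gfap* count was not particular to tanycytes. It was lower by 1.5-fold also in microglia, ependymal cells, endothelial cells, oligodendrocyte precursors, and newly formed and mature oligodendrocytes, and higher in mural cells. Astrocyte markers summed to 577 and 312 CPM in precursors, to 577 and 312 CPM in newly formed oligodendrocytes and to 794 and 953 CPM in ependymal cells. The part of RNA from astrocytes in the *Gfap* counts of these types was not tested.

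For the 8 most abundant members, the genes with the most similar pattern were sought by Pearson's r of log2(CPM + 1) over the 13 cell types, among genes with at least 200 UMIs; the types share depth and free RNA, and r is a description. The closest to *Serpine2* were *Chst11* (r = 0.94), *Mtss1l* (0.92) and *Nav2* (0.92). The closest to *Serpinh1* were *Col4a5* (0.98), which encodes a basement membrane collagen, *Lamb2* (0.96) and *Wwtr1* (0.96). *Serpinb6b* was closest to *Lrg1* (0.99) and *Tead4* (0.99), and *Serpinb9* to *Hspb1* (0.96). *Serpinb1a* was closest to *Lcp1* (0.97), which encodes the leukocyte actin bundler L-plastin. *Serping1* was closest to *Cybrd1* (0.92) and *Rarres2* (0.92), *Serpini1* to *Egr4* (0.90) and *Hrh3* (0.89), and *Serpinb6a* to *Slc25a24* (0.88).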

How the data were processed

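Single-cell 3′ libraries (10x Chromium version 3) were made by the authors from collagenase-dissociated hypothalamus and sequenced to short paired reads. The deposited files hold UMI counts per gene and barcode, which the authors made with Cell Ranger (version 3.0.1 by the submitters' processing notes) against an Ensembl transcriptome; the genome build is not given in the sources used here. No normalization had been applied to the counts, and cells were filtered by Cell Ranger only. The deposited tables held 4488 and 4524 barcodes, with 52004789 and 57013099 UMIs; 4296 and 4379 had at least 200 detected genes. The study's text gives 2 sets of cell numbers, one equal to the deposited barcodes and one smaller than what this filter leaves.

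Cell types were rebuilt from marker lists. For each list the 3 highest z values of ln(1 + counts per 10000) in a cell were averaged. A cell of any type but tanycytes needed at least 3 detected markers, a mean of at least 0.75 and a lead of 0.5 over the next list. Tanycytes needed at least 500 CPM and 3 UMIs of *Crym*, and more *Crym* than *Tmem212*. Such barcodes were called tanycytes whatever their lead if their best list was that of tanycytes, ependymal cells or astrocytes. They were also called tanycytes if their best mean was under 0.75. Erythroid cells needed 50% or more haemoglobin UMIs. The gates were set with the data in view, and names may differ from the study's. Doublets were called with Scrublet (70 and 73 barcodes) and kept, except in an alternative.

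UMIs were summed per type and library and divided by the type's total. Intervals were exact at 95%, Poisson for levels, binomial for shares, conditional binomial for ratios. A pair of gene and type was compared at 50 UMIs over both libraries and counted past 1.5-fold. A level of 0 was read against 3 UMIs. With 1 library per group no p-value was computed, and leaving out a replicate was not possible. The calculation was tested on simulated data.

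The members and gene lists were chosen with earlier results of these data known. Named genes were the 8 most abundant members, every pair past 1.5-fold, the 3 most similar genes of each of those members and the listed partners; other names were chosen after their values were seen. The values of 1 member that met this rule are not reported here, although the counts include it. RefSeq promoters were matched by symbol, and 32 of 40 members had one. Python 3.11.15, numpy 2.4.6, scipy 1.17.1, pandas 2.3.3 and scanpy 1.11.5 were used.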

Additional observations from a re-analysis of the deposited data

Results flagged for a closer look

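*Serpine2* stood out because its SC300 over Control ratio passed 1.5-fold upward in some cell types and downward in another. The log2 ratio was 1.28 in tanycytes, 0.78 in mural cells and 0.59 in endothelial cells, and −0.84 in mature oligodendrocytes. With 1 library per group the difference between these cell types was not tested. The value in mature oligodendrocytes was 0.20 with called doublets left out.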

How the results depend on the processing

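No paired analysis was possible because each group had 1 library. Of the 65 compared pairs, 8 were lower and 8 higher past 1.5-fold. The lower count was 4 without the 3 cells with most UMIs of the gene, where 55 pairs were compared. It was 17 with a minimum of 20 UMIs and 2 at a fold of 2. The higher count was 13 with graph clusters, where 67 pairs were compared, and 15 with a minimum of 20 UMIs. It was 4 with a minimum of 100 UMIs and 4 at a fold of 2. Graph clusters, named by their most frequent gated type, gave 9 lower pairs and a minimum of 100 UMIs gave 6. A pair can leave these counts by falling under the minimum of UMIs as well as by a changed ratio. The shares over all genes given above hold for the main setting only. Scaling by the median of ratios, totals without mitochondrial, haemoglobin and ribosomal protein genes, leaving out barcodes above 20% mitochondrial UMIs or called doublets, all deposited barcodes and a gate with 4 detected markers each gave 7 or 8 in both directions. *Serpine2* in mature oligodendrocytes turned from −0.84 to 0.20 (log2) with doublets left out and was −0.27 with each cell weighted alike. *Serpine2* in tanycytes was 0.74 and *Serpinb6a* in newly formed oligodendrocytes 1.51 with graph clusters, and *Serpinf1* in tanycytes −4.37 with each cell weighted alike. The median log2 ratio of all genes in a type lay within 0.07 of 0. Counting error is the only error these intervals cover, and animals, dissection and capture cannot be told apart from the treatment.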
